A study of Homo sapiens with 18 samples.

Results

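The genes described here encode the TNRC6 scaffold proteins and the enzymes that remove and destroy the mRNAs to which miRNAs bind. They were chosen by name, as the 10 rows of the gene table for TNRC6A, TNRC6B, TNRC6C, CNOT1, PAN2, PAN3, DCP1A, DCP2, DDX6 and XRN1, out of 58302 genes. Each name matched 1 row, and all 10 genes passed the filter on low values in every comparison. In the cytoplasm, Dicer1 cuts miRNA precursors to mature miRNAs, which guide an Argonaute protein to matching sites, mostly in 3′ untranslated regions. A TNRC6 protein bound to Argonaute then calls in the PAN2-PAN3 and CCR4-NOT deadenylases, which shorten the poly(A) tail. The helicase DDX6 links the deadenylated mRNA to the decapping enzyme DCP2 and its cofactor DCP1A, and the exonuclease XRN1 degrades the decapped body.

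The study asked how papillary thyroid carcinoma cells respond when Dicer1 is lost in part or nearly in full. Poly(A) RNA from 18 libraries was sequenced, with 3 libraries in each of 6 groups. TPC1 is a human papillary thyroid carcinoma line with both Dicer1 alleles intact, and D11 is a single TPC1 clone made Dicer1 (+/-) by CRISPR-Cas9, so that differences between the lines are differences between 1 clone and its parent. Cells of each line were non-transfected (NT), given 5 nM of a negative control siRNA (NC), or given 5 nM of an siRNA against Dicer1 (siDicer), both by transfection, and RNA was collected on day 4. The control group of the study joins NT and NC, which the paper describes as not differing in its RNA sequencing, with no threshold given for that statement.

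The groups rest on the short description of each sample, which is also the column name of its values, because the longer title named another treatment or replicate in 12 of the 18 samples. Dicer1 transcript itself separated the siDicer libraries: DICER1 lay at 246 to 395 in the siDicer libraries of TPC1 against 1397 to 2492 in its controls, and at 277 to 451 against 655 to 1536 in D11. DICER1 was also lower in NT than in NC, with no overlap, at 1397 to 1582 against 1901 to 2492 in TPC1 and at 655 to 1157 against 1407 to 1536 in D11. No targeted gene checks the labels of NT against NC, which rest on the descriptions alone. Values here are read counts that the authors scaled to 20 M reads per library, and the libraries held between 11.3 and 23.2 M counted reads. PAX8, a thyroid lineage factor, was at 7361 or more and the epithelial keratin KRT8 at 5715 or more. FOXE1 (61 to 214) and TG (32 to 124) were low but present in every library, whereas NKX2-1 was at 0, TSHR and SLC5A5 were at 0 to 2 and the epithelial marker EPCAM was at 0 to 6. Of the markers of other cell types, CD3E was at 0, and PTPRC reached at most 4, PECAM1 12 and DES 30, while the fibroblast collagen COL1A1 ran from 35 to 134. Among TPC1 libraries replicate 2 stood apart, with a chi-square per gene of up to 40.9 against the other replicates of its group, where replicates 1 and 3 gave 4.36 to 7.25. In D11, NT replicate 1 stood apart with 19.5 and 35.1 against the other NT libraries, which gave 6.09 between them.

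The target sequences give the context in which these genes are usually read, since transcripts of silencing factors can themselves hold miRNA sites. 5 seed families often discussed in thyroid cells were searched in the 3′ untranslated region of the canonical GENCODE transcript of each gene, on the transcript strand. miRNA levels were not analysed here. The mature sequences are shown because their seeds, bases 2 to 8 from the 5′ end, define the searches, and the capitals mark those seeds (RefSeq, GRCh38.p14).
hsa-miR-30a-5p: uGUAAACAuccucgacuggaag
hsa-miR-221-3p: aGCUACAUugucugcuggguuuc
hsa-miR-222-3p: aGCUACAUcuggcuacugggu
hsa-miR-146b-5p: uGAGAACUgaauuccauaggcug
hsa-miR-21-5p: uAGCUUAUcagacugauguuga
hsa-let-7a-5p: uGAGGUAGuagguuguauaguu

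The 3 TNRC6 genes were joined by the miR-30 match TGTTTAC, with 4 copies in TNRC6A, 2 in TNRC6B and 2 in TNRC6C. At least 1 copy was found in 23.9% of 3′ untranslated regions of about the length of that of TNRC6A, in 35.2% for TNRC6C and in 65.8% for TNRC6B. The TNRC6A sites are shown because that gene held the most copies of any match among the 10 genes. The capitals mark the match, and the sites lie on the plus strand of GRCh38 in the last, untranslated part of the transcript, at chr16:24824247-24824269, chr16:24824538-24824560, chr16:24824578-24824600 and chr16:24825344-24825366.
TNRC6A site 1: ctgtcccagtgtcaaTGTTTACt
TNRC6A site 2: cactttgaaccttctTGTTTACa
TNRC6A site 3: tttgagaaaaaaaaaTGTTTACt
TNRC6A site 4: tcagtggcttttaacTGTTTACa

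DCP2, whose level moved most, held no miR-30 match in its 8711 bases of 3′ untranslated region. It held 1 match to the seed that miR-221-3p and miR-222-3p share (ATGTAGC, on the plus strand at chr5:113014183-113014205), found in 32.4% of regions of like length, and 1 miR-146 match (AGTTCTC, chr5:113019875-113019897), found in 51.6%. XRN1 shared the miR-146 match, on the minus strand at chr3:142307198-142307220, found in 29.6% of regions of about its length. These sites are shown because DCP2 and XRN1 are the genes for which siDicer and NC differed most.
DCP2 miR-221-3p site: agactgctggaggaaATGTAGCa
DCP2 miR-146 site: agcatttttaagtgaAGTTCTCt
XRN1 miR-146 site: ccatagttagctttaAGTTCTCt

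The remaining matches were few. TNRC6B held 2 miR-21 matches (ATAAGCT) and 1 ATGTAGC, PAN3 held 1 miR-21 match, and DCP1A held 1 miR-30 match and 1 ATGTAGC. CNOT1, PAN2 and DDX6 held none of the 5, and the let-7 match CTACCTC was in none of the 10 genes. Over all 13489 3′ untranslated regions searched, TGTTTAC was in 17.9%, AGTTCTC in 12.4%, CTACCTC in 11%, ATAAGCT in 9.7% and ATGTAGC in 9.3%. A match is a run of letters in the transcript and was not tested as a site.

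Per kb of annotated exon, the 10 genes spanned a wide range of levels. CNOT1, the large scaffold subunit of CCR4-NOT, had a median of 711 normalised read counts per kb over the 18 libraries and was the highest in each. DDX6 followed with a median of 300.3 and TNRC6A with 216, and each lay above the next gene in 18 of 18 libraries. DCP1A (117), PAN3 (112), DCP2 (99.4) and XRN1 (95.1) formed a middle group whose order changed from library to library. TNRC6B (46.7), PAN2 (38.8) and TNRC6C (35.8) were the lowest and likewise exchanged places. TNRC6A thus made up most of the TNRC6 transcript per kb, with 67.1% to 74.6% of the sum of the 3 paralogs in every library.

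**Figure D1:**
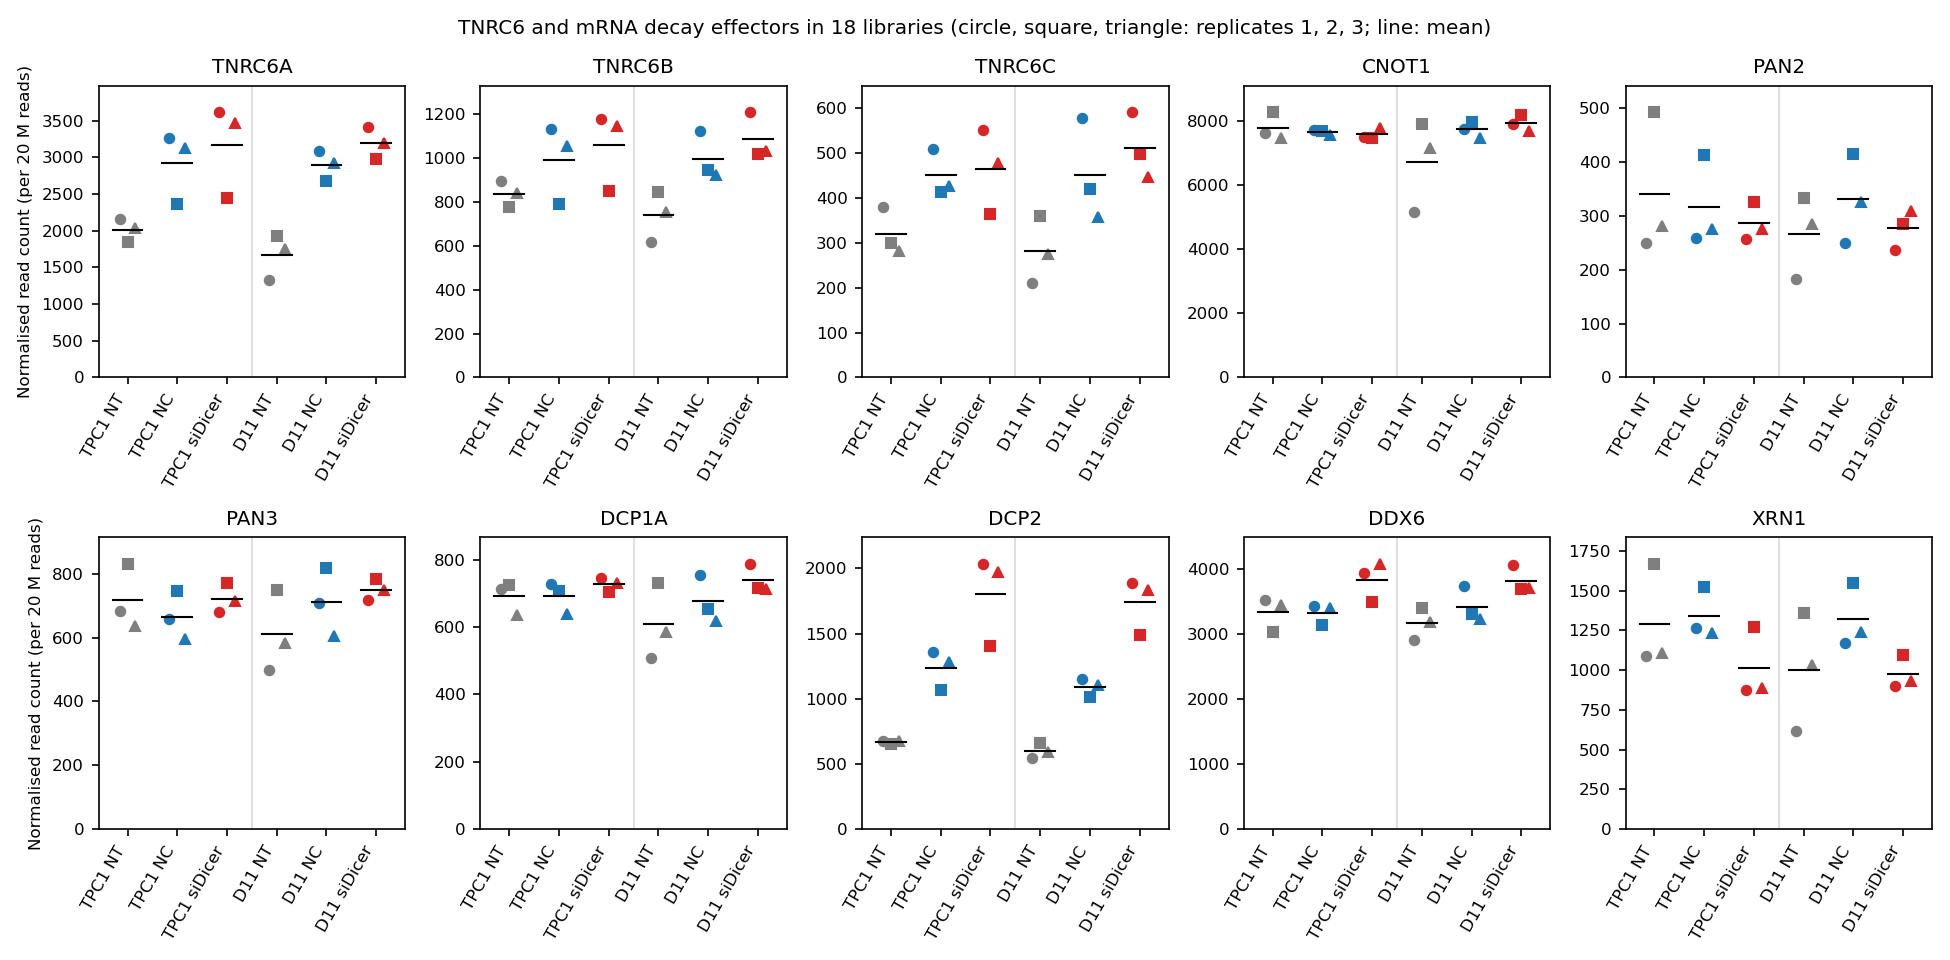
Normalised read counts (reads scaled to 20 M per library) of the 10 genes, by group, with 1 point per library and a line at the mean of 3. DCP2 steps up from NT to NC to siDicer in both lines with no overlap of neighbouring groups, TNRC6A steps up from NT to NC with no overlap while its NC and siDicer libraries overlap, and XRN1 is lower in siDicer than in NC.

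The comparisons between groups used limma on log2 values, with p-values adjusted over all genes tested by the Benjamini-Hochberg method. A gene was called where the adjusted p was under 0.05 and the fold change at least 1.5. Nothing in the labels says whether the replicates were separate cultures, so the p-values measure the spread between these libraries. In bulk libraries, fewer cells of a kind and less RNA per cell cannot be told apart.

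Cells with Dicer1 siRNA were first compared with the control group of the study, NT and NC together. 1 of the 10 genes, DCP2, was called, and it was higher: in TPC1 (7.38% of all genes were called there), in D11 (12%), and with both lines in 1 fit (13.6%). The share of members was thus close to the share of all genes. At the adjusted p alone, 3 of the 10 were higher and 0 lower in the fit of both lines, where 38.4% of all genes passed (16.4% higher and 22% lower). With NC alone as control the calls were 0 of 10 in TPC1 (5.93% of all genes) and 1 in D11 (8.86%). In TPC1 against NC alone, 3 of the 10 had an unadjusted limma p under 0.05, and voom was not run for it. Of these 3, DDX6 came last, at rank 4919 of the 17923 genes tested. Unadjusted values under that threshold were thus common among all genes there, and the 3 members do not stand out. With NT alone the calls were 1 in TPC1 (5.97%), 3 in D11 (17.1%) and 3 in both lines (17.5%). Against the joined controls of both lines, the median change of the 10 genes was 0.18 on the log2 scale and that of all genes -0.04.

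DCP2, the catalytic subunit that removes the cap (GRCh38 chr5:112976702-113022195, plus strand), showed the largest differences. Its 3 TPC1 libraries per group held normalised read counts of 678, 656 and 674 with NT, 1361, 1070 and 1280 with NC, and 2034, 1401 and 1976 with siDicer. In D11 they were 544, 661 and 592 with NT, 1155, 1016 and 1106 with NC, and 1890, 1492 and 1838 with siDicer. In both lines every NC library lay above every NT library, and every siDicer library above every NC library. Against the joined controls DCP2 was higher in siDicer by 0.97 ± 0.26 on the log2 scale in TPC1 (SE, limma adjusted p = 0.0315), by 1.10 ± 0.24 in D11 (adjusted p = 0.0061) and by 1.03 ± 0.19 in both lines (adjusted p = 0.000199). In TPC1 the call was lost without NT replicate 1 or 3 or siDicer replicate 1 or 3, with adjusted p = 0.148 as the highest of these. With the replicate number as a block the limma adjusted p was 0.0275 in TPC1 and 0.00982 in D11. The joined controls hold 2 groups that differed for this gene, so each step is given on its own.

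The step between NT and NC sets transfection with a control siRNA against none. With both lines in 1 fit, DCP2 was higher in NC than in NT by 0.87 ± 0.08 on the log2 scale (SE, limma adjusted p = 2.46e-05), a fold change of 1.83 and the 11th smallest p of 18814 genes. It was higher by 0.88 in TPC1 (adjusted p = 0.0467) and by 0.87 in D11 (adjusted p = 0.0325), and within 1 line the call was lost when some single libraries were left out. Those were NT replicate 1 or 3 and NC replicate 1 or 3 in TPC1, and NT replicate 3 or any NC replicate in D11, with a log2 change of at least 0.81 in each case and an adjusted p of at most 0.39. These fits ignore any pairing. With the replicate number as a block the limma adjusted p of this step was 0.000876 in TPC1, 0.00897 in D11 and 2.09e-05 in both lines. Between NC and siDicer DCP2 was higher by a further 0.60 ± 0.10 (adjusted p = 0.00044, both lines), a fold change of 1.51. With the block the limma adjusted p was 4.34e-07. The comparison of siDicer with NC shares the NC libraries with the previous one. The fold change fell just under 1.5 when any of 6 libraries was left out (TPC1 NC replicate 2, TPC1 siDicer replicates 1 and 3, D11 NC replicate 2, D11 siDicer replicates 1 and 3), with the lowest log2 change at 0.56, while the adjusted p stayed at 0.00174 or less. From NT to siDicer DCP2 was higher by 1.47 ± 0.10 (adjusted p = 7.26e-07), a fold change of 2.77. Exons of MCC lie opposite those of DCP2, and MCC ranged over 865 to 2725 in NT, 1039 to 1995 in NC and 1123 to 2245 in siDicer. Its means over both lines were 1764, 1387 and 1494. The paper names a stranded library kit, but whether reads were counted by strand is not given in the sources used here. The reads of this pair thus cannot be told apart with certainty.

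**Figure D2:**
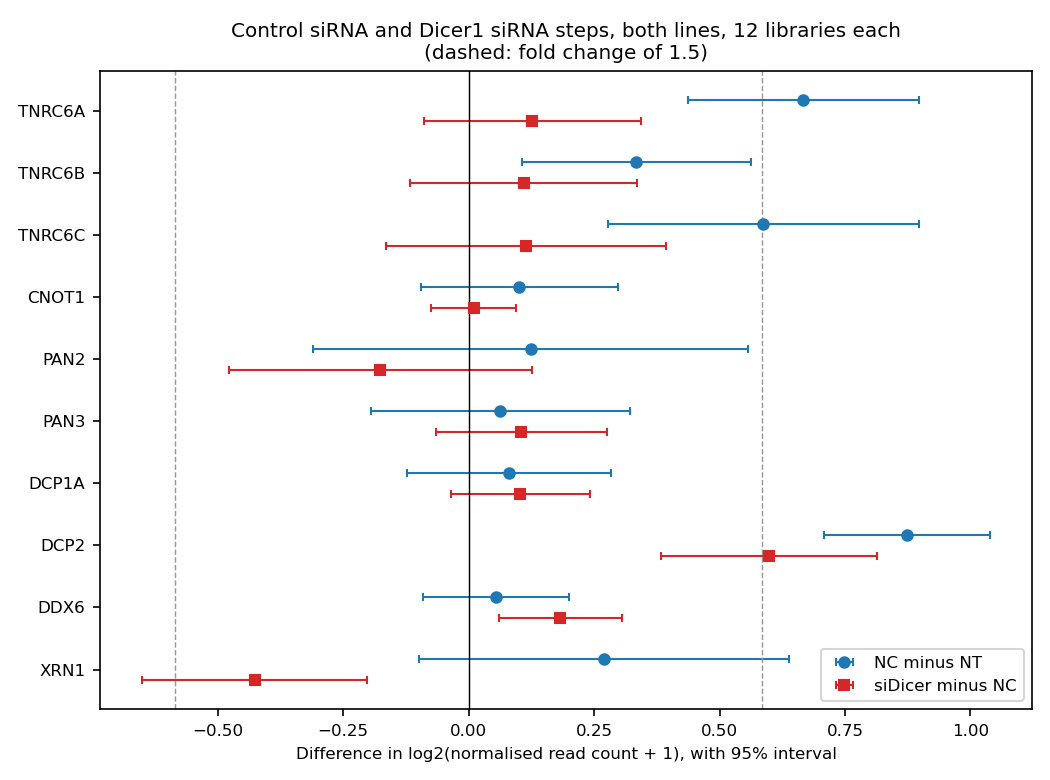
Difference in log2(normalised read count + 1) with its 95% interval for the step from NT to NC (circles) and from NC to siDicer (squares), from limma fits of 12 libraries each with line as a term; the NC libraries enter both. The interval lies above 0 for DCP2 in both steps, for TNRC6A, TNRC6B and TNRC6C in the first and for DDX6 in the second, and below 0 for XRN1 in the second.

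DCP1A, the cofactor that activates DCP2 (chr3:53283429-53347586, minus strand), did not pass the test in any comparison as scaled by the authors. With length and GC trends removed within each library, DCP1A was higher in siDicer than in the joined controls of both lines by 0.16 on the log2 scale (limma adjusted p = 0.0414), under the fold minimum. Its counts ran from 637 to 744 over the 9 TPC1 libraries and from 508 to 787 over the 9 D11 libraries, with overlapping groups. The change from NC to siDicer was 0.10 on the log2 scale with a 95% interval of -0.04 to 0.24, and from NT to NC it was 0.08 with an interval of -0.12 to 0.28. Per kb, DCP2 stood at 0.52 ± 0.04 of DCP1A in TPC1 NT, 0.96 ± 0.14 in NC and 1.33 ± 0.23 in siDicer (SD, n = 3). In D11 the ratio was 0.53 ± 0.05, 0.87 ± 0.08 and 1.26 ± 0.14 (SD, n = 3). The NT ratios, 0.485 to 0.575 over both lines, lay below every NC ratio, and NC and siDicer ratios were separate in D11 but touched in TPC1 (1.077 in NC replicate 3 and 1.07 in siDicer replicate 2).

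**Figure D3:**
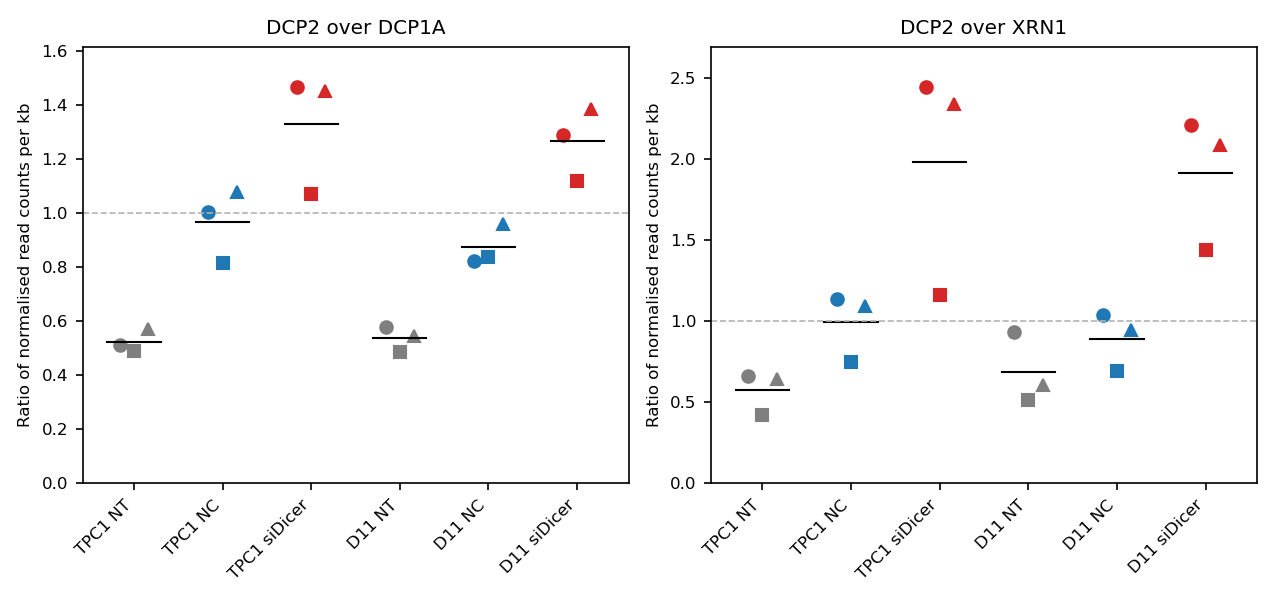
Ratio of normalised read counts per kb in each library for DCP2 over DCP1A (left) and DCP2 over XRN1 (right), with a line at the mean of each group of 3 and a dashed line at 1. NT libraries lie below 1 in both panels, and siDicer libraries lie above 1.

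DDX6, the helicase that joins translational repression to decapping, was slightly higher with Dicer1 siRNA. In TPC1 it stood at 3528, 3034 and 3448 with NT, 3435, 3141 and 3397 with NC, and 3948, 3494 and 4080 with siDicer. In D11 it stood at 2916, 3401 and 3189 with NT, 3741, 3305 and 3227 with NC, and 4058, 3689 and 3708 with siDicer. The siDicer libraries lay above NC in TPC1 and above NT in D11, and overlapped the other control group in each line. Against the joined controls of both lines DDX6 was higher by 0.21 ± 0.06 on the log2 scale (SE, limma adjusted p = 0.00579), a fold change of 1.16. Against NC alone it was higher by 0.18 ± 0.06 (adjusted p = 0.0226; 35.8% of all genes passed there at the adjusted p alone), and this missed 0.05 without TPC1 siDicer replicate 1 or 3 or D11 NC replicate 3 (adjusted p of at most 0.0609). NC and NT gave a difference of 0.05 with a 95% interval of -0.09 to 0.20.

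XRN1, the exonuclease that acts after decapping (GRCh38 chr3:142306607-142448062, minus strand), was lower in siDicer than in NC. In TPC1 its counts were 1087, 1667 and 1106 with NT, 1265, 1520 and 1235 with NC, and 876, 1271 and 889 with siDicer. In D11 they were 617, 1361 and 1030 with NT, 1172, 1549 and 1238 with NC, and 901, 1092 and 929 with siDicer. Replicate 2 was the highest in each of the 6 groups, the groups overlapped in TPC1, and in D11 all siDicer libraries lay below all NC libraries. XRN1 was lower in siDicer than in NC by -0.43 ± 0.10 on the log2 scale (SE, limma adjusted p = 0.00585, both lines), a fold of 0.744, and it was lower in 6 of 6 pairs of the same line and number. The adjusted p stayed at 0.0171 or less whichever library was left out, but the change was smaller than 1.5-fold and was not called. In D11 alone the change was -0.43 (adjusted p = 0.0432) and in TPC1 alone -0.42 (adjusted p = 0.133). With the replicate number as a block the limma adjusted p was 0.000236 in D11, 0.00424 in TPC1 and 6.31e-06 in both lines. Against the joined controls the change was -0.29 (limma adjusted p = 0.128, or 0.0345 with the replicate number as a block). Without D11 NT replicate 1, the lowest library at 617, it was -0.38 (adjusted p = 0.00864). Against NT alone the siDicer change was -0.16 in both lines (limma adjusted p = 0.514), -0.34 in TPC1 (adjusted p = 0.327) and 0.03 in D11 (adjusted p = 0.947). From NT to NC XRN1 changed by 0.27 in both lines (limma adjusted p = 0.389), 0.08 in TPC1 (adjusted p = 0.912) and 0.46 in D11 (adjusted p = 0.447). Over both lines without the block, the fall thus passed the test against NC but not against NT. Per kb, DCP2 stood at 0.57 of XRN1 in TPC1 NT, 0.99 in NC and 1.98 in siDicer, and at 0.68, 0.89 and 1.91 in D11.

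Of the TNRC6 scaffolds, TNRC6A and TNRC6C were higher in NC than in NT, and no scaffold passed the test between NC and siDicer without the replicate block. TNRC6A (GRCh38 chr16:24610209-24827632, plus strand) had normalised read counts of 2160, 1846 and 2037 for TPC1 NT, 3262, 2365 and 3130 for NC, and 3609, 2443 and 3460 for siDicer. In D11 they were 1326, 1929 and 1748 with NT, 3082, 2677 and 2920 with NC, and 3406, 2971 and 3191 with siDicer. Every NC library lay above every NT library of its line, whereas NC and siDicer overlapped in both. TNRC6A was higher in NC than in NT by 0.67 ± 0.11 on the log2 scale over both lines (SE, limma adjusted p = 0.00206), a fold change of 1.59. With DCP2 and TNRC6C it was 1 of 3 genes of the 10 called in that comparison, where 2.57% of all genes were called. In TPC1 alone 1 of the 10 was called (0.111% of all genes) and in D11 alone 1 (0.35% of all genes), DCP2 in each. No label states a pairing, but same-numbered D11 libraries deviated together and were taken as paired, which the main fits leave out. With the replicate number as a block TNRC6A was called in D11 too (log2 change 0.81, limma adjusted p = 0.0148 against 0.0597 without the block). Between NC and siDicer the TNRC6A difference was 0.13 ± 0.10 (95% interval -0.09 to 0.34, adjusted p = 0.358), or adjusted p = 0.0102 with the block. 1 gene of the 10, DCP2, was called between NC and siDicer, against 11.5% of all genes.

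D11 NT replicate 1 was the lowest of the D11 control libraries for 10 of the 10 genes, and beside it stands a trend with transcript length. In this library the longest 20% of genes minus the shortest 20% gave -0.318 on the log2 scale, each gene being set against the mean of its line, while the other libraries ran from -0.0997 to 0.117. The median of the 10 genes was -0.61 in it. The 6 siDicer libraries all had positive values, 0.0189 to 0.117. Of the control libraries, D11 NC replicate 1 (0.0329), TPC1 NT replicate 2 (0.0086) and D11 NC replicate 2 (0.0035) were positive too. Without D11 NT replicate 1 the step of TNRC6A from NT to NC was 0.58 (adjusted p = 0.0018), just under the fold minimum, and with trends on length and GC content removed within each library it was 0.55 (adjusted p = 0.00218). For DCP2 the same values were 0.84 (adjusted p = 4.65e-05) and 0.78 (adjusted p = 6.05e-05).

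**Figure D4:**
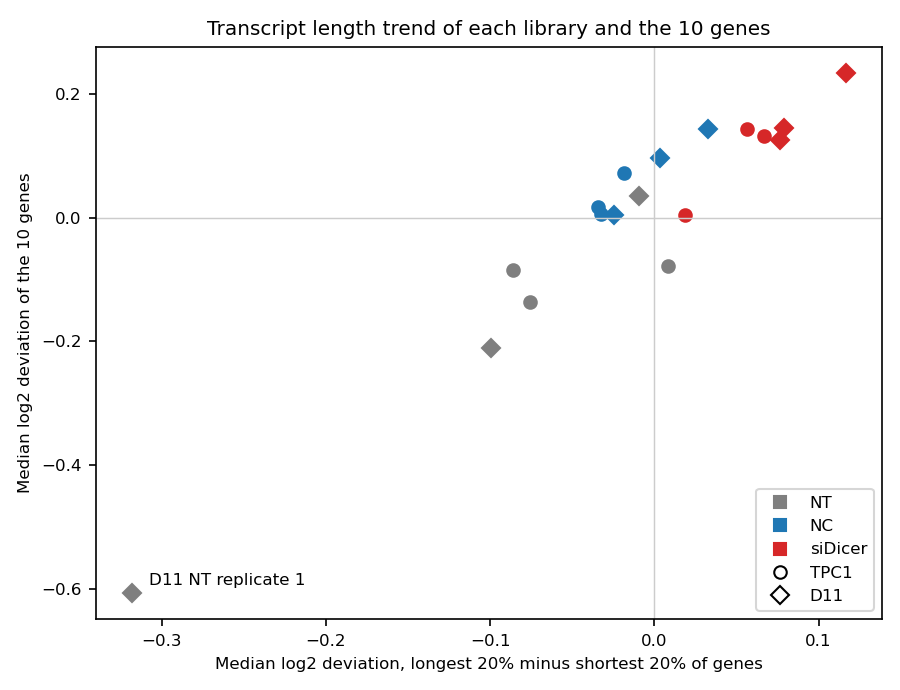
Each point is a library: the median log2 deviation of the longest 20% of genes minus that of the shortest 20% (horizontal) against the median log2 deviation of the 10 genes (vertical), both from the mean of the line. D11 NT replicate 1 lies at -0.318 and -0.61, apart from the other 17 libraries.

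TNRC6C had counts of 380, 300 and 281 for TPC1 NT, 509, 414 and 427 for NC, and 551, 364 and 477 for siDicer. In D11 it had 211, 359 and 276 with NT, 577, 419 and 357 with NC, and 590, 497 and 446 with siDicer. NT and NC were separate in TPC1 and touched in D11. The step from NT to NC was 0.59 ± 0.14 on the log2 scale over both lines (SE, limma adjusted p = 0.0247), a fold change that lay on the threshold and fell under it with TMM scaling (0.58) and with the trends removed (0.49). It was also lost without any of 6 single libraries (TPC1 NT replicates 2 and 3, TPC1 NC replicate 1, D11 NT replicates 1 and 3, D11 NC replicate 1), with a log2 change of at least 0.49 and an adjusted p of at most 0.0645. From NC to siDicer the TNRC6C difference was 0.11 with a 95% interval of -0.16 to 0.39.

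TNRC6B gave smaller values in the same order. It stood at 894, 775 and 841 for TPC1 NT, 1134, 788 and 1054 for NC, and 1177, 848 and 1147 for siDicer, and at 617, 845 and 755, 1122, 947 and 921, and 1207, 1020 and 1031 in D11. The groups overlapped in TPC1, and in D11 each NC library was above each NT library. The step from NT to NC was 0.33 ± 0.11 on the log2 scale (SE, limma adjusted p = 0.074) and from NC to siDicer 0.11 ± 0.11 (adjusted p = 0.453). With the replicate number as a block the adjusted p was 0.03 for the first and 0.0459 for the second, both under the fold minimum.

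The deadenylases showed no difference past the test in any comparison. CNOT1 had 7642, 8279 and 7488 for TPC1 NT, 7743, 7714 and 7580 for NC, and 7514, 7478 and 7793 for siDicer. In D11 it had 5172, 7905 and 7157 with NT, 7768, 7995 and 7493 with NC, and 7905, 8215 and 7714 with siDicer. Apart from D11 NT replicate 1, the 17 other libraries lay between 7157 and 8279. The change from NC to siDicer was 0.01 on the log2 scale with a 95% interval of -0.08 to 0.09 (limma adjusted p = 0.872), which was the narrowest interval of the 10 genes.

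PAN2, the catalytic subunit of the PAN2-PAN3 deadenylase, ranged over 183 to 491 and PAN3, its RNA-binding partner, over 498 to 831, with overlapping groups in both lines. From NC to siDicer the PAN2 difference was -0.18 with a 95% interval of -0.48 to 0.13, and that of PAN3 was 0.10 with an interval of -0.07 to 0.28. PAN2 was lower in siDicer in 5 of 6 pairs of the same line and number and equal in the other one. The wide interval of PAN2 does not show that it stayed at one level.

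The Dicer1 (+/-) clone and its parent could be compared in their control libraries. None of the 10 genes was called by limma between D11 and TPC1, where 1.02% of all genes were called, and none with voom. At an unadjusted p under 0.05 there was 1, DCP2, lower in D11 by -0.17 ± 0.08 on the log2 scale (adjusted p = 0.49), against 9.85% of all genes. All 10 estimates lay below 0, between -0.22 and -0.02, where 48.3% of all genes lay above 0. D11 NT replicate 1 enters each of the 10 estimates. In NC libraries alone they lay between -0.17 and 0.09. In NT libraries alone all 10 lay below 0, between -0.40 and -0.07, beside a median of -0.02 for all genes.

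Whether the siDicer change differed between the lines was tested as an interaction. No gene of the 10 and none of 19181 in the table (0%) passed limma's adjusted p, and no member passed with voom. At an unadjusted p under 0.05 there were 0 of the 10 and 133 genes in all. For DCP2 the siDicer change was 0.13 higher in D11 than in TPC1 on the log2 scale, with a 95% interval of -0.67 to 0.93, so a difference of that size between the lines was not detectable here.

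Other genes of miRNA silencing and mRNA decay were read from 7 lists in the fit of siDicer against the joined controls of both lines, where 16.4% of all genes were higher and 22% lower at the adjusted p. Among the Argonautes, which hold the miRNA, 2 of 4 were higher and 1 lower. AGO1 changed by 0.27 on the log2 scale (limma adjusted p = 0.0179), AGO3 by 0.34 (adjusted p = 0.0312) and AGO4 by -0.50 (adjusted p = 0.0424), while AGO2 gave 0.15 (adjusted p = 0.465). With TMM or RLE scaling AGO4 no longer passed, and with the trends removed 1 of the 4 was higher and 1 lower (3596 and 3788 of all 19181 genes). Against NC alone AGO4 was called (-0.65, adjusted p = 0.00744), AGO1 was higher at the adjusted p alone (0.35, adjusted p = 0.00538), and the median of the 4 was 0.03.

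Of the other CCR4-NOT subunits, 2 of 11 were higher and 2 lower. TNKS1BP1 changed by 0.37 and the deadenylase CNOT6 by 0.29, while CNOT10 changed by -0.34 (limma adjusted p of at most 0.00228). Of the adaptors that bring CCR4-NOT to chosen mRNAs, 4 of 9 were higher and 1 lower. BTG2 rose by 0.89 ± 0.24 (adjusted p = 0.00638) and was called, but against NC alone it gave 0.47 (adjusted p = 0.0882) and the step from NT to NC was 0.84. TOB2 rose by 0.52, ZFP36L2 by 0.43 and ZFP36L1 by 0.40, and their list had a median of 0.22.

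Of the poly(A)-binding and translational repression partners, 3 of 10 were higher and 0 lower by limma, with 5 higher under TMM or RLE scaling and 4 with the trends removed. Of all 19181 genes 3148 were higher in the main fit, 3708 with TMM, 3711 with RLE and 3596 with the trends removed. GIGYF1, which with EIF4E2 represses translation at the cap, rose by 0.70 ± 0.14 (adjusted p = 0.000733) and was called, and EIF4E2 rose by 0.25 and HELZ by 0.29. Of the other decapping factors, 4 of 9 were higher and 2 lower. LSM14B rose by 0.39 and PATL1 by 0.33, while DCPS, which clears the cap left by decay from the 3′ end, fell by 0.52 (adjusted p = 1.96e-05).

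The LSM1-7 ring, which binds the shortened tail before decapping, had 4 of 7 genes lower and 0 higher. LSM2 fell by 0.52, LSM5 by 0.42 and LSM3 by 0.32 on the log2 scale (limma adjusted p of at most 0.00308). Against NC alone 3 of the 7 were lower and 0 higher, with a median change of -0.22, where 35.8% of all genes passed in either direction. From NT to NC the median of the ring was already -0.24, with 0 of the 7 past the adjusted p. Against the joined controls the exosome and SKI complex, which degrade mRNA from the 3′ end, had 7 of 15 lower and 0 higher. EXOSC9 fell by 0.69 ± 0.10 (adjusted p = 1.66e-05) and was called, with EXOSC2 at -0.44 and HBS1L at -0.33. With TMM or RLE scaling 4 of the 15 were lower, and with the trends removed 6. Of all 19181 genes 4224 were lower in the main fit, 3572 with TMM, 3560 with RLE and 3788 with the trends removed. Against NC alone 7 of the 15 were lower and 1 higher, where 35.8% of all genes passed in either direction. From NT to NC 4 were lower and 0 higher at the adjusted p, with a list median of -0.01. The share of all genes at the adjusted p alone was not taken for that step, so the 4 cannot be set against it. With the fold minimum 0 of the 15 were called there, beside 2.57% of all genes.

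The median change of the lists ran from -0.28 (LSM1-7 ring) to 0.22 (CCR4-NOT adaptors), beside -0.04 for all genes. With length and GC trends removed the LSM1-7 ring had a median of -0.17, and the exosome and SKI list was the lowest at -0.23.

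**Figure D5:**
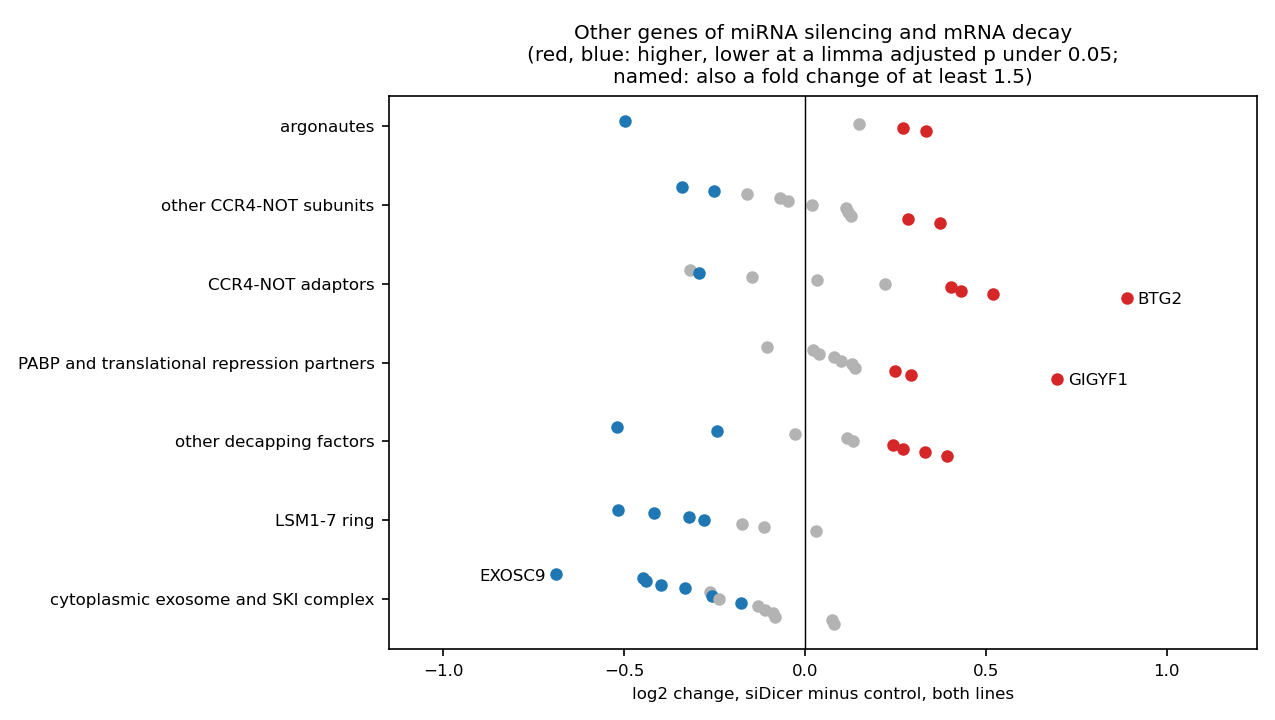
log2 change of siDicer against the joined controls of both lines for the genes of 7 lists of silencing and decay factors, 1 point per gene. Red and blue points passed a limma adjusted p of 0.05 upwards and downwards, grey points did not, and names mark the 3 genes that also reached a fold change of 1.5: BTG2, GIGYF1 and EXOSC9.

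The genes most like TNRC6A over the 18 libraries were sought among 12508 genes with a mean of at least 100, as the Pearson correlation of log2 values centred on the mean of each line. This is a description over libraries that share groups, depth and length trend. BTRC (r = 0.984), IREB2 (0.980), HTT (0.976), PBRM1 (0.975) and YOD1 (0.972) came first. HTT, for example, averaged 3233 normalised read counts in TPC1 NT, 4693 in NC and 4824 in siDicer, and 2628, 4222 and 4386 in D11, with the larger step between NT and NC as in TNRC6A.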

How the data were processed

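The deposited table holds 1 value per gene and library, whole numbers used here as a score: per the paper's methods the authors aligned the reads to GRCh38 with STAR 2.5.3a, counted them per gene with HTSeq 0.9.1 on Ensembl release 90 and scaled each library to 20 M reads. They are not unscaled counts, so no count model was the main test. Steps between low values returned depths of 11.3 to 23.2 M reads, 1 read being worth 0.861 to 1.77. log2(value + 1) was fitted with limma 3.58.1 in R 4.3.3 (trend in the variance), over genes that reached 10 or more in 3 or more libraries, and a fold change is on that scale. 10 genes and DICER1 were named by rule, with the 3 genes of smallest p and all called genes in each other list, and the 5 genes most like TNRC6A. Members and lists were chosen with earlier results of these data known. siDicer against NC in both lines, with its alternatives and the blocked fits against NC or NT in 1 line, was added after seeing the data. Lengths came from GENCODE release 44. Same-numbered D11 libraries deviated together in 9 of 9 pairs (correlation 0.106 to 0.473) and were taken as paired. D11 libraries of different numbers gave -0.383 to 0.169. In TPC1 7 of 9 same-numbered pairs exceeded 0.1. No label states a pairing in either line, and the main fits hold no block. Fits were tested on simulated data. 1 further list of decay factors and 1 marker are not reported here.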

Additional observations from a re-analysis of the deposited data

Results flagged for a closer look

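2 values of CNOT1 lay far from the other control libraries of their line, by the gap to the nearest library over the whole range of 6. TPC1 NT replicate 2 was the highest at 8279 normalised read counts, with a gap of 0.678 of the range. D11 NT replicate 1 was the lowest at 5172, with a gap of 0.703 of the range. Chance alone sets about 1 in 20 groups of this size apart in this way.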

How the results depend on the processing

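Counts below are members called, and most were 1 or 3, so a single gene near the fold or p threshold moves them. In siDicer against the joined controls, 1 gene was called in each line and in both. With NC alone as control the count was 0 in TPC1; with NT alone it was 3 in D11 and 3 in both lines, and without a fold minimum 3 in both lines. Leaving out 1 library gave 0 to 1 gene for TPC1 and from 1 to 3 genes for D11. In NC against NT, TPC1 gave 0 with RLE scaling, without a filter, with voom on recovered reads and with length and GC trends removed (0 to 1 leaving out 1 library). D11 gave 0 without a filter, 2 with trends removed and 2 with the replicate block (0 to 2 leaving out 1 library), and both lines gave 1 with trends removed (1 to 3 leaving out 1 library). siDicer against NC in both lines gave 0 to 1 leaving out 1 library, and siDicer against NT in TPC1 gave 2 with the replicate block against 1 without it. The cause was not tested. The replicate block changed no other count. TPC1 libraries were not taken as paired, though their same-numbered correlations of 0.086 to 0.509 reached as high as those of D11. The blocked fits of siDicer or NC in both lines do block TPC1 by replicate number too. With the replicate block XRN1 in TPC1 passed the limma adjusted p between NC and siDicer (0.00424), under the fold minimum. No result with a passing test turned its direction under any alternative tried, apart from XRN1 in D11. Its siDicer change was -0.43 against NC alone and 0.03 against NT alone on the log2 scale. Each member reached at least 183 normalised read counts in every library, and in groups with a small SD counting error is not small beside the spread.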

Other observations

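The genes whose levels followed DCP2 most closely over the 18 libraries, chosen after the values of DCP2 were seen, were DIXDC1 (r = 0.979), ROR1 (0.977), COL4A2 (0.971), ATXN7L3B (0.970) and CEMIP2 (0.969), among 12508 genes, by the measure used for TNRC6A. They include a receptor of the Wnt5a pathway (ROR1) and a basement membrane collagen (COL4A2). ROR1 averaged 1115 normalised read counts in TPC1 NT, 1630 in NC and 2361 in siDicer, and 950.3, 1508 and 2361 in D11. COL4A2 averaged 6868, 9029 and 13145 in TPC1 and 6613, 9780 and 13651 in D11. Those closest to XRN1, also chosen after its values were seen, were MARCHF6 (r = 0.987), PANK3 (0.955), RPS6KA3 (0.942), LAMA3 (0.931) and LGR4 (0.931). LGR4 averaged 2174, 2208 and 1531 in TPC1 and 1592, 1944 and 1453 in D11. These correlations are descriptions over libraries that share groups and depth, and no test was made.

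Between NT and NC, outside the 10 genes, 1 of 4 Argonautes and 1 of 9 CCR4-NOT adaptors were called over both lines, both higher in NC. The other lists gave 0 of 11 CCR4-NOT subunits, 0 of 10 poly(A)-binding and repression partners and 0 of 9 decapping factors. They also gave 0 of 7 LSM1-7 genes and 0 of 15 exosome and SKI genes. Of all genes 2.57% were called, so these single genes are not read as a result about the lists. AGO2, the Argonaute that can cut its target, was higher by 0.64 on the log2 scale (limma adjusted p = 0.00553), and BTG2 by 0.84.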
